A study of Mus musculus with 11 samples.

Results

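H3K4me1 peaks called from bisulfite-treated DNA were compared with those called from the matching library without bisulfite, to ask which regions appear in only one of them. Peaks were taken from the deposited list of the longer-read bisulfite run (run 2, paired-end 75-bp reads) and from the list of the untreated control, on chromosomes 1 to 19. A peak was shared when it overlapped a peak of the other list by at least 1 bp, and was otherwise called bisulfite only or control only. The 2 lists held 62243 of the 193978 peaks in all per-library lists of the series: 30875 in the bisulfite list and 31368 in the control list. Of these, 5123 peaks were bisulfite only and 5769 were control only. The shared peaks numbered 25752 in the bisulfite list and 25599 in the control list.

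The series comprised 11 samples of E14 cells, a mouse embryonic stem cell line of 129/Ola background, kept in serum with leukemia inhibitory factor and carrying no introduced allele or drug. Both libraries compared came from 250000 cells and the same antibody against H3K4me1, and both used protein A-Tn5 loaded with methylated adapters. The labels give the bisulfite conversion step as the difference in preparation. They give no read length for the control, so a difference in sequencing cannot be told apart from the treatment. A further deposited list, run 1 (paired-end 35-bp reads), was used as a check that played no part in choosing the classes, but it was read as a further sequencing of the treated library, which the labels do not settle, and not as an independent replicate. With 1 library for each condition, no test across libraries was possible. The 95% Wilson intervals given with shares cover counting error only, and the spread over 19 chromosomes describes these 2 libraries.

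H3K4me1 is laid down by the MLL3 and MLL4 methyltransferases and marks active and poised enhancers and the flanks of promoters. The middle of an active CpG-island promoter usually carries H3K4me3 in place of H3K4me1. In embryonic stem cells, CpG-island promoters of silent developmental genes carry H3K27me3, the mark set by Polycomb repressive complex 2, together with methylation of H3K4, a state called bivalent. Bisulfite turns unmethylated cytosine into uracil and leaves methylated cytosine, so the sequenced calls at each CpG give its methylation.

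The sequences below are promoters lying wholly inside a peak of each class, shown because the classes differed in CpG density. Each is the 250 bases before an annotated RefSeq start (build GRCm38.p6), 5′ to 3′ on the strand of the gene, with every CG in capitals. Aven (an inhibitor of apoptosis; chr2:112492714-112492963, plus strand) and Foxd3 (a transcription factor of pluripotent and neural crest cells; chr4:99656049-99656298, plus strand) lay in shared peaks of the control list and held 18 and 21 CpGs. A shared peak need not be covered by the other list along its whole length. The printed Foxd3 bases also lay in a run 2 peak, while those of Aven lay between run 2 peaks. Fam20c (a Golgi kinase of secreted proteins; chr5:138754831-138755080, plus strand) and Neurog1 (a proneural transcription factor; chr13:56252181-56252430, minus strand) lay in control only peaks and held 41 and 29 CpGs. Uhrf1 (which guides the maintenance methyltransferase to replicated DNA; chr17:56304063-56304312, plus strand) and Zfp42 (also named Rex1, a stem cell marker; chr8:43307010-43307259, minus strand) lay in bisulfite only peaks and held 30 and 9 CpGs.
Aven, shared: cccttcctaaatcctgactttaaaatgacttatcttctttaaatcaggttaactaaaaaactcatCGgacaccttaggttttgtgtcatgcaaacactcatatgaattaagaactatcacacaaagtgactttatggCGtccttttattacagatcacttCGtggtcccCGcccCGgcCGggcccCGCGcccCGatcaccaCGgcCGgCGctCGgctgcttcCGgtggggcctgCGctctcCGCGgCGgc
Foxd3, shared: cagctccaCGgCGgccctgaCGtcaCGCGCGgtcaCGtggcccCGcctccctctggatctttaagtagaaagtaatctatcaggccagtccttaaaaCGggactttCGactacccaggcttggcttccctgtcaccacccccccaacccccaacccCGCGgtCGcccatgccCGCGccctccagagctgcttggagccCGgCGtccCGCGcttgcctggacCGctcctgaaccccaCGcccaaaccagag
Fam20c, control only: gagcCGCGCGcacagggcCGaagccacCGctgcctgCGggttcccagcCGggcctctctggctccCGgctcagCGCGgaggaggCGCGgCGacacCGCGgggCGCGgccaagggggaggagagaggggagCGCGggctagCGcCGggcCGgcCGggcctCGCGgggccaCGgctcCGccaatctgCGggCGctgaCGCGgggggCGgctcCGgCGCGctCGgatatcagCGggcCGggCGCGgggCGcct
Neurog1, control only: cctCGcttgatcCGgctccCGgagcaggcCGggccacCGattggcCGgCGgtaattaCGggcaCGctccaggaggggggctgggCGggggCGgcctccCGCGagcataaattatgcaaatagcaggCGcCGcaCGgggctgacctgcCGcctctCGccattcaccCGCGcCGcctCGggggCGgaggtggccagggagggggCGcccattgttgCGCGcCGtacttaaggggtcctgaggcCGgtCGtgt
Uhrf1, bisulfite only: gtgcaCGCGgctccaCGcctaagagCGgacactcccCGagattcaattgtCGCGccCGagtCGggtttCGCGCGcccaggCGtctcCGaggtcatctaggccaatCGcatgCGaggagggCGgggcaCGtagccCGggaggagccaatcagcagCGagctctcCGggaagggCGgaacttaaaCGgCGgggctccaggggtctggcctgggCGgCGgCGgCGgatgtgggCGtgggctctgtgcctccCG
Zfp42, bisulfite only: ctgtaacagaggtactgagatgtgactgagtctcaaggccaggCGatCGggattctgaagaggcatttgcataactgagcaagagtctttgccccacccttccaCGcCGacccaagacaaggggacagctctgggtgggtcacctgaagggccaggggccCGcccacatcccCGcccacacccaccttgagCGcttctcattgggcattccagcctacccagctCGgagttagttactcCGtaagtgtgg

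The printed promoters are single cases and did not all follow the class medians. Uhrf1, bisulfite only, held more CpGs than Neurog1, control only, and Zfp42 held fewer than both shared promoters. Promoter windows (250 bases before to 50 after a start) wholly inside a control only peak numbered 307. Their medians were a GC content of 64% and 19 CpGs (quartiles 11 and 28). The 234 windows inside bisulfite only peaks had 59% and 17 (quartiles 10 and 23), so the CpG numbers of the unshared classes overlapped widely. The 2413 windows inside shared control peaks had 57.7% and 11, and all 31396 windows 53% and 7. Windows without a CpG were rare in every class: 0 of 307 in control only peaks, 0.43% in bisulfite only peaks and 0.99% in shared peaks. Over all windows the share was 5.25%.

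**Figure D1:**
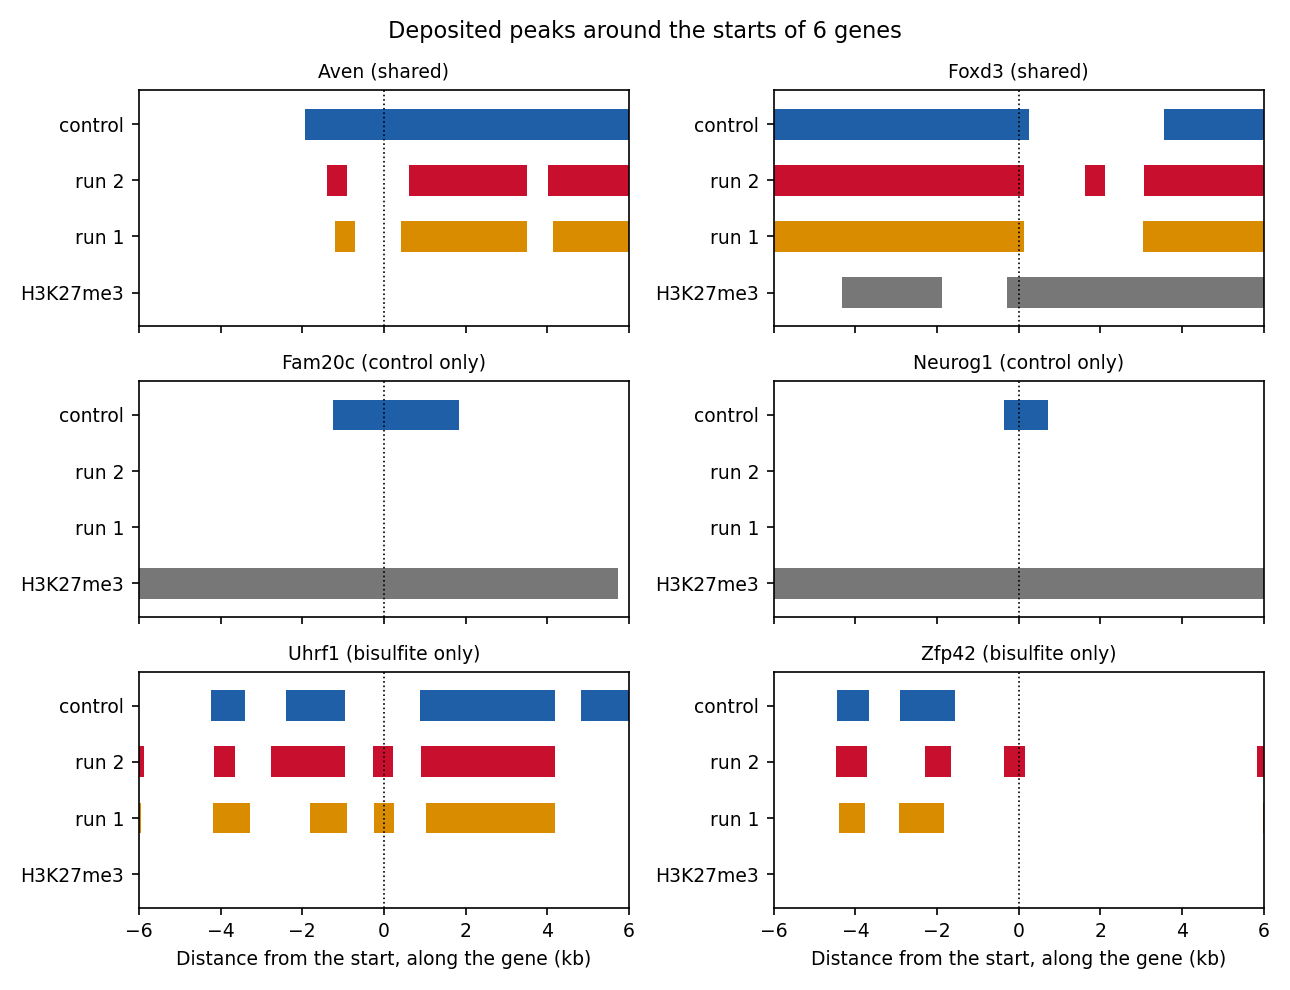
Deposited peaks within 6000 bp of the starts of the 6 genes whose promoters are printed, as bars over the distance from the start along the gene in kb, for the control, bisulfite run 2, bisulfite run 1 and the unified H3K27me3 list. Fam20c and Neurog1 had a control peak over the start and no bisulfite peak of either run in the window, and at Aven the 12222-bp control peak faced separate bisulfite peaks on both sides of the start.

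At Neurog1 the control peak ran from -360 to 728 bp relative to the start and lay inside a 71988-bp H3K27me3 peak. Its 108 CpGs had 162 calls in run 2, none methylated, which allows a level of up to 1.85%, and 66 calls in run 1. At Fam20c the 3079-bp control peak held 213 CpGs with 313 run 2 calls, or 1.47 calls per CpG, of which 5.43% were methylated. The bisulfite library was therefore not without reads at these promoters, although no peak was listed there. At Uhrf1 the 501-bp bisulfite peak ran from -269 to 231 bp relative to the start, and run 1 had a peak at nearly the same place. The Uhrf1 peak had 137 run 2 calls over 50 CpGs, 0 of them methylated, which allows up to 2.19%. The Zfp42 peak had 61 calls, of which 1.64% were methylated, and no run 1 peak.

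The classes first differed in width, which the class rule itself favours, since a wider peak more easily overlaps another by 1 bp. Shared peaks had a median width of 1283 bp (quartiles 738 and 2421 bp) in the bisulfite list and 1372 bp (782 and 2527 bp) in the control list, while both unshared classes had a median of 501 bp, which is the narrowest width in either list. Peaks of 501 bp made up 66.7% of bisulfite only and 57.7% of control only peaks, against 13.4% and 11.9% of shared peaks. Only 8 bisulfite only and 23 control only peaks exceeded 2000 bp. Peak width was the sole measure of peak strength at hand, since the lists carry positions without scores. By number, 16.6% of the bisulfite list (16.2 to 17.0%) and 18.4% of the control list (17.97 to 18.82%) had no partner. With run 1 as the bisulfite list the order of these shares turned, to 19.96% of bisulfite and 15.44% of control peaks. By length the lists overlapped as much: 84.3% of the 56.8 Mb of bisulfite peaks and 81.6% of the 58.7 Mb of control peaks lay inside the other list. The unshared share ranged over the 19 chromosomes from 14.01 to 19.74% in the bisulfite list and from 16.1 to 21.5% in the control list.

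**Figure D2:**
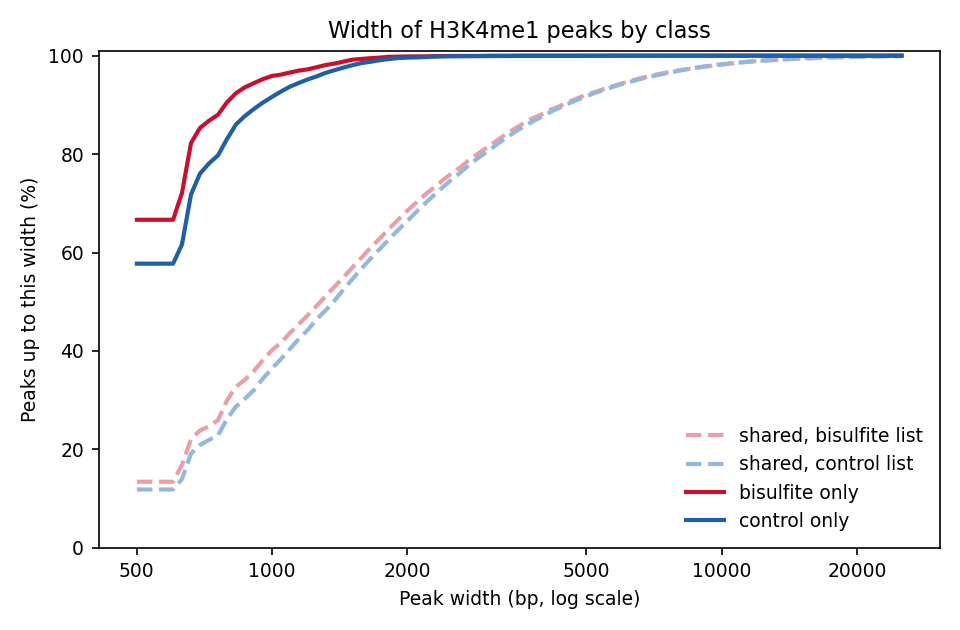
Share of peaks (%, vertical axis) up to a given width (bp, logarithmic horizontal axis) for both unshared classes (solid lines) and the shared peaks of each list (dashed lines). Both unshared curves start at 66.7% and 57.7% at the narrowest width of 501 bp, where the shared curves stand at 13.4% and 11.9%.

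Many unshared peaks lay beside a peak of the other list. The median distance to it was 2968 bp for bisulfite only peaks and 3986 bp for control only peaks, and 60.6% and 54.6% lay within 5000 bp. Peaks more than 50000 bp from the other list made up 10.1% of bisulfite only and 13.3% of control only peaks. The run 1 list overlapped 82.9% of bisulfite only peaks (81.8 to 83.9%), 26.0% of control only peaks (24.9 to 27.1%) and 97.7 to 97.8% of shared peaks. Most bisulfite only peaks were thus also listed in run 1, and most control only peaks were absent from both runs.

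Control only peaks were denser in CpGs than bisulfite only peaks. Their median was 16.4 CpGs per kb (quartiles 9.98 and 31.9), against 12.5 (7.98 and 20.6) in bisulfite only peaks and 13.8 and 13.9 in the shared peaks of each list. The control only median was the higher one on 19 of 19 chromosomes. The upper tail set the classes apart: 14.5% of control only peaks (13.6 to 15.4%) had 50 or more CpGs per kb, against 5.43% of bisulfite only peaks (4.84 to 6.08%) and 3.71% and 4.01% of shared peaks. Width did not remove the difference. Among peaks of exactly 501 bp, 11.2% of control only and 6.27% of bisulfite only peaks passed 50 CpGs per kb.

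Control only peaks also lay more often in H3K27me3 peaks, taken from the unified list that joins 5 H3K27me3 libraries. They did so in 24.8% of cases (23.7 to 25.9%), against 12.6% of bisulfite only peaks (11.8 to 13.6%) and 15.6% and 15.3% of shared peaks. The order was alike with either H3K27me3 treatment: 22.9% of control only peaks overlapped a peak of the 250000-cell H3K27me3 bisulfite library and 24.3% one of the H3K27me3 control. For bisulfite only peaks these shares were 11.3 and 11.85%, and for shared peaks 13.5 to 13.8% and 14.8 to 15.2%. Few peaks of any class overlapped an H3K27me3 control peak and no H3K27me3 bisulfite peak: 1.86% of control only, 1.21% of bisulfite only and 1.72 and 1.65% of shared peaks. For H3K9me3, the mark of heterochromatin, the 2 unshared classes stood the other way round. An H3K9me3 unified peak overlapped 2.31% of control only and 3.90% of bisulfite only peaks, the latter near the 4.05 to 4.07% of shared peaks. A gene overlapped 76.4% of control only and 71.1% of bisulfite only peaks, and 73.3% of shared peaks of either list. A start lay within 1000 bp of 18.8% of control only peaks (17.8 to 19.8%) and 13.7% of bisulfite only peaks (12.8 to 14.7%), against 15.0 and 15.1% of shared peaks. These promoter shares exclude chromosome 18, whose starts were not used here, and starts of some genes on the other chromosomes were not used either, so the shares are lower limits. Among peaks outside H3K27me3 the difference between the unshared classes fell from 5.04 to 0.72 percentage points for promoters and from 3.85 to 2.00 for the median CpGs per kb.

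CpG density and H3K27me3 therefore had to be read together. Among peaks up to 2000 bp wide that overlapped H3K27me3, the unshared share of the control list was 24.9% under 10 CpGs per kb, 32.5% from 30 to 50, 47.4% from 50 to 80 and 67.8% (62.6 to 72.5%) at 80 or more. In the bisulfite list the same shares were 29.8%, 15.9%, 14.7% and 8.57% (4.57 to 15.5%). The lists thus moved in opposite directions as density rose. Without H3K27me3 both rose from 10 CpGs per kb upward: at 80 or more, 51.9% of 79 control peaks and 51.6% of 91 bisulfite peaks were unshared. From 10 to 20 CpGs per kb, the bin with the most peaks, the shares were 19.7% and 18.9%. The lists were not alike in every bin. The control share was higher from 20 to 30 (27.5% against 21.4%) and from 30 to 50 (32.0% against 25.5%), with intervals apart. Under 10 the bisulfite share was higher (27.3% against 23.4%), also with intervals apart. From 50 to 80 the control and bisulfite shares were 38.9% and 43.0%, with overlapping intervals.

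Taking all densities of 50 or more CpGs per kb with H3K27me3, 666 of 1262 control peaks (52.8%, 50.0 to 55.5%) had no bisulfite partner, against 102 of 737 bisulfite peaks without a control partner (13.8%, 11.5 to 16.5%). The control share was the higher one on 19 of 19 chromosomes and ranged from 38.7 to 80%, against 2.78 to 26.5% in the bisulfite list. Against run 1 in place of run 2 the shares were 46.5% and 17.96%, in the same order. Run 2 had calls in these peaks, though fewer than in shared ones. From 50 to 80 CpGs per kb with H3K27me3, control only peaks had 1.82 run 2 calls per CpG, shared control peaks 3.27 and bisulfite only peaks 3.51. CpGs outside all H3K4me1 peaks had 0.159, but they were not matched for density or H3K27me3. Whether signal was lost with bisulfite was not tested.

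**Figure D3:**
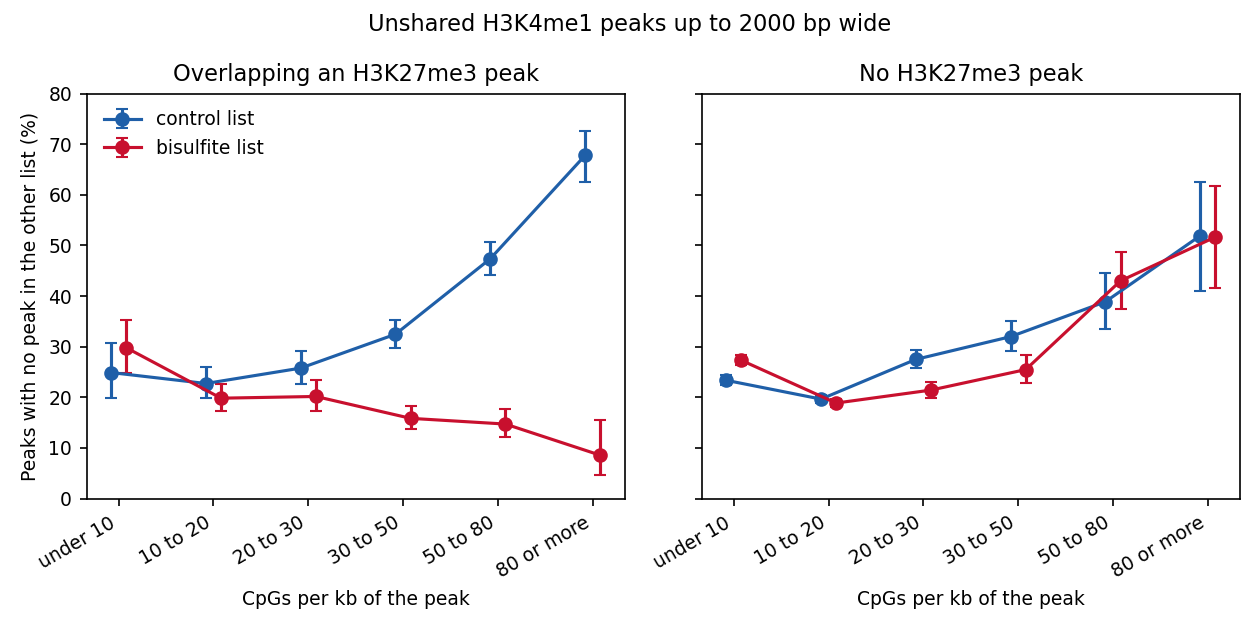
Share of peaks up to 2000 bp wide with no peak in the other list (%, vertical axis) by CpGs per kb of the peak (horizontal axis), for the control list (blue) and the bisulfite list (red), with 95% Wilson intervals. With an H3K27me3 peak (left) the shares part to 67.8% and 8.57% in the densest bin, and without one (right) they reach 51.9% and 51.6%.

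Shared peaks showed the same difference as a difference in width. The lists formed 35097 joined regions, of which 24209 held peaks of both lists and 21744 held 1 of each. Over all shared regions the median log2 ratio of bisulfite to control width was -0.01 (quartiles -0.30 and 0.18), that is, nearly equal widths. In the 95 shared regions with 80 or more CpGs per kb and H3K27me3 the median was -0.85, with median widths of 633 bp with bisulfite and 1304 bp without. The control was wider in 85.3% of them. The 27 regions of that density without H3K27me3 had a median of 0 and 37.0% with a wider control. From 50 to 80 CpGs per kb the medians were -0.32 in 619 regions with H3K27me3 and -0.05 in 166 regions without.

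Part of the difference lay at promoters. Of the control only peaks up to 2000 bp with H3K27me3, 49.0% at 50 to 80 CpGs per kb and 55.1% at 80 or more lay within 1000 bp of a start used here, and the rest did not. For bisulfite only peaks of the same kind the shares were 48.4% of 93 peaks and 66.7% of 9. A place near a start was thus not particular to control only peaks. Protein-coding promoters were split, at the most upstream start, into CpG-rich ones (50 or more CpGs within 500 bp) with and without an H3K27me3 peak over the start, and CpG-poor ones. Of 2717 CpG-rich promoters with H3K27me3, 27.4% (25.8 to 29.1%) had a control peak within 500 bp, against 17.3% (16.0 to 18.8%) with a run 2 peak and 19.8% (18.4 to 21.4%) with a run 1 peak. A control peak without a run 2 peak was found at 12.2% of them and the converse at 2.10%. Of 5046 CpG-rich promoters without H3K27me3, 14.5% had a control peak and 14.3% a run 2 peak, with 4.44% and 4.24% in only one. Of 8693 CpG-poor promoters, not split by H3K27me3, the shares were 11.9% and 11.0%. A control peak without a run 2 peak was found at 2.59% of these (2.28 to 2.94%) and the converse at 1.62% (1.38 to 1.91%).

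Along the promoters with H3K27me3, the control profile was highest at the start itself, which lay in a control peak at 18.8% of them. The bisulfite profiles had a local low 250 bp after the start, between a high on each side, and were lower still far from the start. Run 2 covered 11.2% of promoters at 250 bp before the start, 10.05% at the start, 8.28% at 250 bp after it and 11.8% at 1000 bp after it. Run 1 stood at 12.96%, 11.8%, 9.42% and 13.2% at the same positions, and the control at 17.0%, 18.8%, 18.2% and 16.5%. At 2000 bp after the start the control and run 2 stood at 10.4% and 9.39%. At CpG-rich promoters without H3K27me3 all 3 lists dipped just after the start, to 4.40% in the control and 3.15% in run 2 at 500 bp, and stood at 15.4% and 14.9% at 2000 bp.

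**Figure D4:**
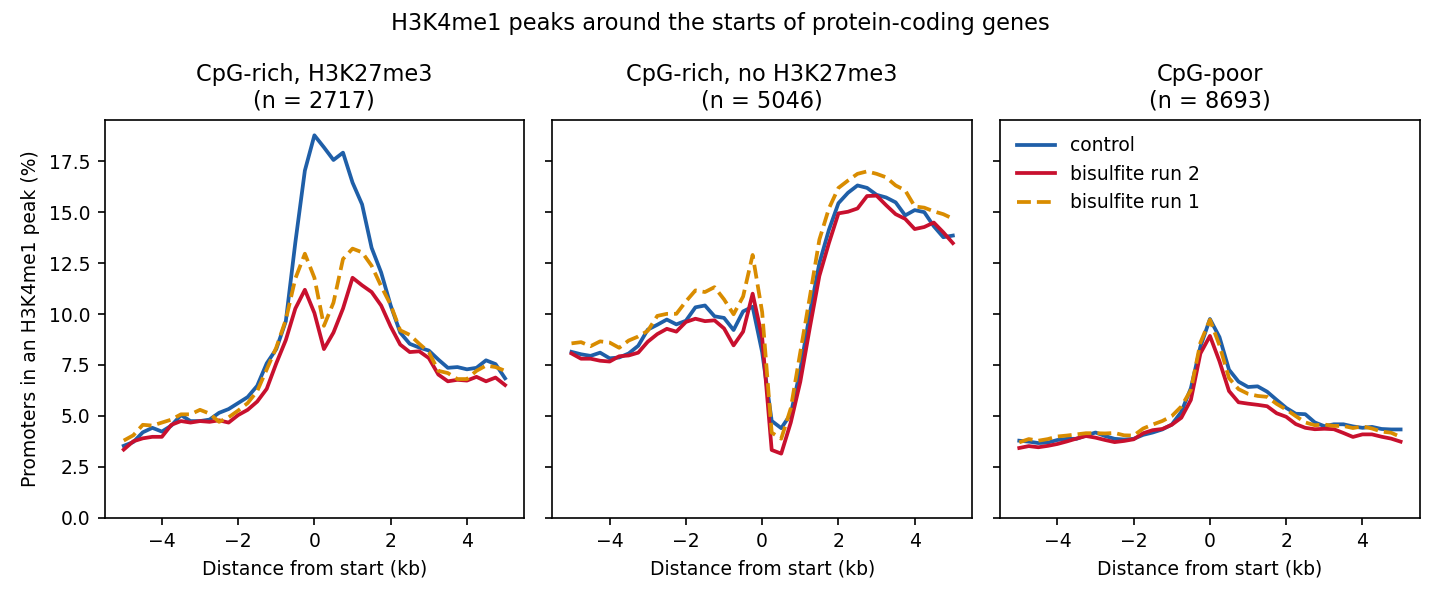
Share of protein-coding promoters (%, vertical axis) whose position at a given distance from the start (kb, horizontal axis) lies in an H3K4me1 peak, for the control and both bisulfite runs, in 3 groups of promoters. In the left group (2717 CpG-rich promoters with H3K27me3) the control stands at 18.8% at the start and run 2 at 10.05%, while the lists lie close together in the other groups.

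Read depth in the bisulfite library followed the classes, and its peaks had been called from the same reads. Run 2 had 6.73 and 6.27 calls per CpG in the shared peaks of the bisulfite and control lists, 3.76 in bisulfite only peaks and 1.93 in control only peaks. Run 1 gave 3.39, 3.18, 1.85 and 1.00, and 0.0803 outside all H3K4me1 peaks. Control only peaks thus had fewer calls than either other class and more than the rest of the genome. The 250000-cell H3K27me3 library, whose reads chose none of these peaks, had 20.04 calls per CpG in control only peaks, 5.37 in bisulfite only peaks, 6.17 and 7.05 in shared peaks and 1.41 outside. These pooled values were carried by peaks with H3K27me3. By density bin, control only peaks with H3K27me3 had 10.1 to 42.8 calls per CpG, and those without had 0.350 to 1.38. No read count of the control library was used here, so its depth beside run 2 is unknown.

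Methylation was called in the bisulfite libraries and could be read in all classes. Over peaks with 10 or more run 2 calls, the median level was 32.3% in 4428 bisulfite only peaks (quartiles 10.5 and 53.8%) and 31.5% in 4450 control only peaks (8.82 and 55.6%). Shared peaks had medians of 27.9 and 27.8%, and CpGs outside all H3K4me1 peaks a level of 47.1%. Both unshared classes spread more widely than shared peaks, but their single-peak levels rest on fewer calls. Bisulfite only peaks held a median of 7 CpGs, and the shared peaks of the bisulfite and control lists 19 and 21. Whether this accounts for the wider spread was not tested. Levels over 80% were found in 4.63% of bisulfite only and 5.78% of control only peaks, against 1.07 and 1.01% of shared peaks. The medians of the unshared classes thus lay within 1 percentage point of each other at this minimum. The difference, control only minus bisulfite only, ran from 1.52 points with 5 or more calls to -5.32 with 20 or more, and was -2.84 with run 1 calls. The classes also differed in CpG density, and methylation fell steeply with density.

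Within most bins of CpG density the control only peaks were the more methylated class. For peaks up to 2000 bp wide without H3K27me3 at 10 to 20 CpGs per kb, 46.8% of 32732 run 2 calls were methylated in control only peaks (46.3 to 47.4%) and 38.9% of 54994 in bisulfite only peaks (38.5 to 39.3%). Shared peaks of either list had 32.5 and 32.6%. The control only level was higher on 18 of 19 chromosomes. From 30 to 50 CpGs per kb the levels were 26.3% and 13.9%, with 16 of 19 chromosomes in that order. At 80 or more CpGs per kb the levels were 0.92% and 0.83%, with overlapping intervals and the control only level higher on 6 of 15 chromosomes. Over the 6 bins with and the 6 bins without H3K27me3, run 2 had the higher control only level in every bin, by 0.09 to 12.4 percentage points. The order was less even over chromosomes in some bins: from 10 to 20 CpGs per kb with H3K27me3 it held on 12 of 19 in run 2 and on 10 of 19 in the H3K27me3 library. The 250000-cell H3K27me3 library took no part in calling the H3K4me1 peaks, although it is 1 of those behind the unified list that splits them by H3K27me3. It gave 47.2% and 37.0% in the bin from 10 to 20 without H3K27me3. It had the higher level in control only peaks in 5 of 6 bins without H3K27me3, the exception being a difference of -0.03 at 80 or more, and in 6 of 6 bins with it.

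**Figure D5:**
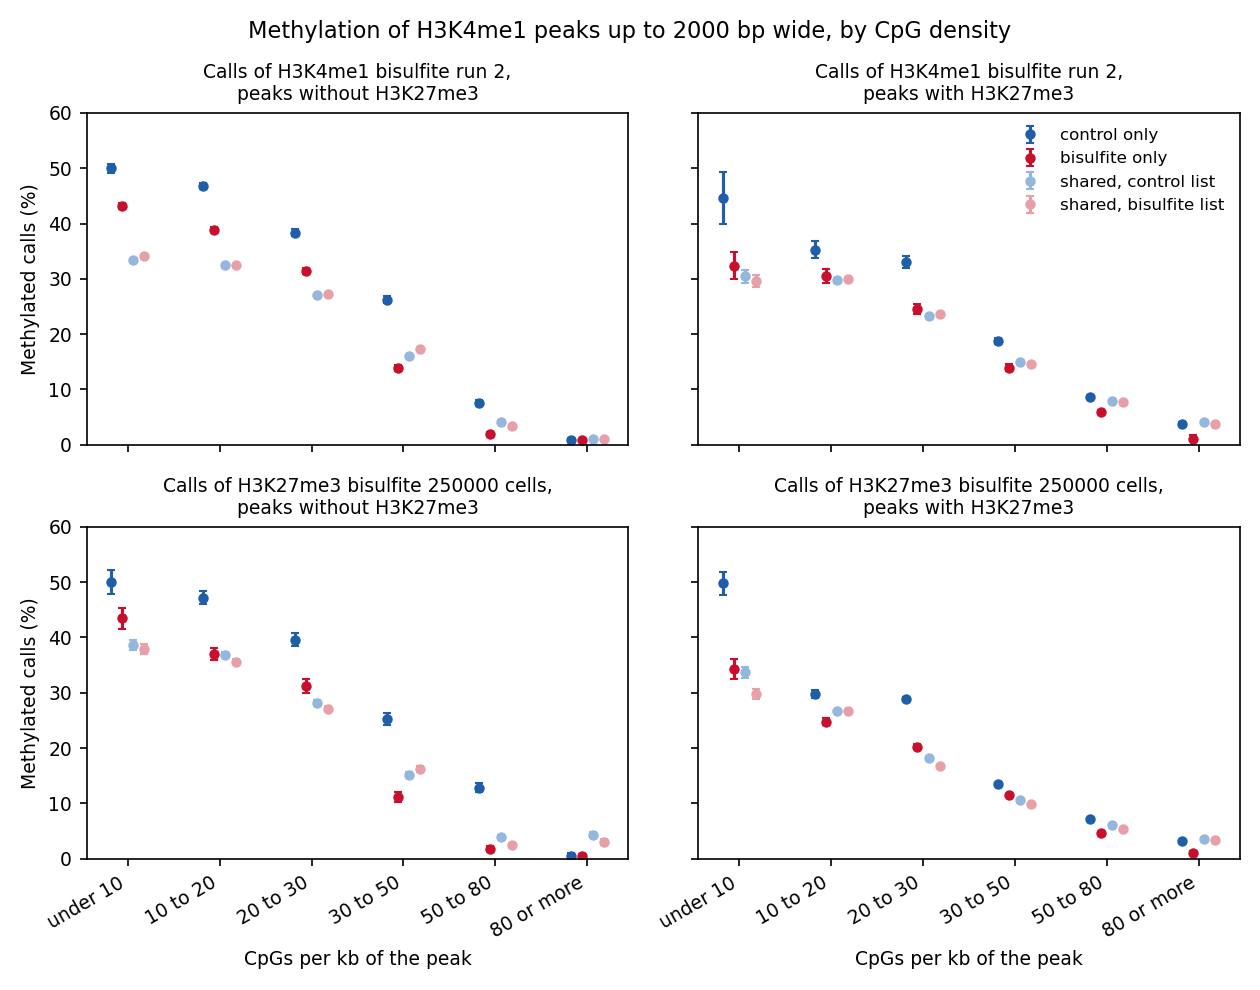
Methylated calls (%, vertical axis) by CpGs per kb of the peak (horizontal axis) for the 4 classes of H3K4me1 peaks up to 2000 bp wide, from run 2 (top) and from the 250000-cell H3K27me3 library (bottom), for peaks without (left) and with (right) H3K27me3, with 95% Wilson intervals. Control only peaks (dark blue) lie above bisulfite only peaks (dark red) in all bins of run 2, and in all bins of the H3K27me3 library but the densest without H3K27me3. In that bin both of these classes lie under 1% in either library, with overlapping intervals.

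The widest unshared peaks show both kinds of region at single loci. The widest bisulfite only peak (chr4:98730659-98734204, 3546 bp) lay in L1td1, which encodes an RNA-binding protein derived from a LINE-1 element and abundant in stem cells. It had 6.90 run 2 calls per CpG, 10.02% methylated, was covered by run 1 peaks along its whole length and lay 1447 bp from a control peak. The others of the widest 5 lay 2638 bp from Traf1 (an adaptor of tumour necrosis factor receptors), 336 bp from Usp48 (a ubiquitin protease), in Zfp518b (a zinc finger gene) and in 4930556G01Rik, with levels of 14.4, 27.7, 54.3 and 31.6%. Run 1 peaks covered 98.4 to 100% of each of the 5. None overlapped an H3K27me3 peak, as was so for most bisulfite only peaks, and their densities ran from 3.91 to 19.2 CpGs per kb.

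Among the widest control only peaks, 2 neighbours lay in Klf13, a Krüppel-like transcription factor (chr7:63924819-63930567, 5749 bp, and chr7:63917912-63923646, 5735 bp). Their run 2 calls were 76.4% and 45.0% methylated. A further one lay in Noct, which encodes the phosphatase nocturnin (chr3:51245503-51250397, 4895 bp), and another 23130 bp from Gm34724 (chr15:37069397-37072841, 3445 bp). Unlike control only peaks as a class, these 4 had run 2 depths of 3.93, 9.30, 7.32 and 11.0 calls per CpG. Run 1 peaks covered 91.7% of the first Klf13 peak and 100% of the Noct peak, and none of the other 2. So a missing run 2 peak did not mean few calls at these loci. The last was the Fam20c promoter peak (chr5:138753847-138756925), the only one of the 5 with H3K27me3, at 69.2 CpGs per kb. It had no run 1 peak, and in the H3K27me3 library 5111 calls of which 5.63% were methylated.

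Among shared regions, the excess of bisulfite over control width was largest in Etv5 (an ETS transcription factor; 35175 against 29994 bp), Kat6b (a histone acetyltransferase; 63137 against 58035 bp) and Wdr33 (a polyadenylation factor; 4853 against 1022 bp). The excess the other way was largest at Aven and Chrm5 (a muscarinic receptor; 12222 bp in the control against 7973 bp), Bid (8412 against 4379 bp) and Bax (5347 against 1724 bp), both pro-apoptotic members of the BCL2 family. None of these 6 regions overlapped H3K27me3, and their densities lay between 5.56 and 18.8 CpGs per kb. Of all shared peaks, only 15.6% in the bisulfite list and 15.3% in the control list overlapped H3K27me3. Its absence from 6 regions, ranked by excess in bp, therefore says little about where widths differed.

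Lists of genes with known roles were read against all 20661 protein-coding genes on these chromosomes. A control only peak lay within 5000 bp of 20% of those genes and a bisulfite only peak of 16.1%, while 44.2% had any control peak and 42.2% any run 2 peak. The stem cell identity of the peaks was checked on 8 markers, of which 7 had a control peak and 8 a peak in each bisulfite run. Peaks covered a median of 36.0, 38.8 and 40.9% of their bases in the control, run 2 and run 1, against 1.42, 0.443 and 2.73% for 8 fibroblast markers, of which 5, 4 and 6 had a peak. The stem cell markers themselves ranged from 0 to 80.2% in the control. In the same order of lists, the medians were 13.8, 7.31 and 7.21% for 4 endoderm markers, 14.5, 7.80 and 13.3% for 4 neural markers and 9.82, 10.3 and 10.3% for 4 trophoblast markers.

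In 4 of 5 lists of lineage genes, more genes had a control only than a bisulfite only peak. The counts were 5 and 0 of 10 mesoderm genes, 5 and 1 of 10 neural genes, 4 and 2 of 10 trophoblast genes and 6 and 0 of 10 fibroblast genes, and 3 and 3 of 10 endoderm genes. Of these genes with a control only peak, 4, 5, 4, 6 and 3 also had an H3K27me3 peak within 5000 bp, as did 9, 10, 7, 8 and 9 of the 10 genes of each list in the same order. Lists of 10 genes are small, and no test was made of any of them. Pluripotency genes had 6 and 7 of 20, formative and primed state genes 1 and 3 of 9, germline genes 0 and 1 of 10, constitutively active genes 5 and 1 of 12, and DNA methylation enzymes and their partners 3 and 2 of 10.

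The control only peaks at the endoderm, mesoderm, neural, trophoblast and fibroblast genes numbered 27, of which 22 overlapped H3K27me3, 14 had 50 or more CpGs per kb and 5 had a run 1 peak. Over all control only peaks these shares were 24.8, 14.5 and 26.0%, but most genes of these lists had an H3K27me3 peak nearby. Of the 6 bisulfite only peaks at the same genes, 3 overlapped H3K27me3, 1 was as dense and 5 had a run 1 peak. The 27 control only peaks had medians of 53.0 CpGs per kb and 1.79 run 2 calls per CpG. Gsc, a homeobox gene of the organizer, had a 501-bp control only peak over its start with 126 CpGs per kb and 0 of 122 run 2 calls methylated, which allows up to 2.46%. Neurog2, a proneural factor like Neurog1, had an 894-bp peak over its start with 88.4 CpGs per kb and 0.654% methylated. Ascl2, a trophoblast regulator, had a 1553-bp peak over its start with 72.1 CpGs per kb and 3.16% methylated. Fbn1, which encodes the matrix protein fibrillin, had a 501-bp peak over its start with 59.9 CpGs per kb and only 18 run 2 calls, 5.56% methylated. All 4 peaks overlapped H3K27me3 and had no run 1 peak. The H3K27me3 library held 2020, 7007, 7754 and 1006 calls in them, between 0.297 and 2.286% methylated.

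Hand2 (a cardiac and limb factor) and Pax3 (a neural crest and muscle factor) had peaks of 636 and 1098 bp at 108 and 60.1 CpGs per kb with H3K27me3, and 0.594 and 0.924 run 2 calls per CpG. Some control only peaks at listed genes were CpG-poor and lay outside H3K27me3. Tead4, a trophoblast regulator, had a 1392-bp control only peak of 10.8 CpGs per kb without H3K27me3, with 19 of 20 run 2 calls methylated. Uhrf1, whose promoter carried a bisulfite only peak, also had a control only peak of 1668 bp, 16126 bp from its start, with 77.1% of 35 calls methylated. Psmb4, a proteasome subunit gene, had a 1479-bp peak at 14.9 CpGs per kb, 41.7% methylated, which run 1 also had.

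Over all 10 lists, 24 bisulfite only peaks were 501 to 1079 bp wide, and 8 of them overlapped H3K27me3, against 27 of 47 control only peaks. A run 1 peak overlapped 19 of the 24 and 15 of the 47. In the whole bisulfite only and control only classes, 12.6 and 24.8% overlapped H3K27me3 and 82.9 and 26.0% a run 1 peak. Esrrb, an orphan nuclear receptor of naive stem cells, had 3 control only peaks and no bisulfite only peak. Tbx3, a pluripotency-linked T-box factor, had 1 of 1079 bp in the bisulfite list alone and 2 in the control alone. Klf4, a reprogramming factor, had a 501-bp bisulfite only peak holding 1 CpG. The median depth was 3.57 run 2 calls per CpG in the bisulfite only and 1.83 in the control only peaks at listed genes. Among the former with H3K27me3, Fgf5, a marker of the formative state, had 3.32 calls per CpG and 9.71% methylated at 264 bp from its start, and Sox1, a neural factor, had 4.35 and 5.19% at 3485 bp from its start. Sox1 also had a control only peak 1188 bp from its start, at 154 CpGs per kb and 1.83 calls per CpG. Cdx2, a trophoblast factor, had 6 calls per CpG and 1.75% methylated at 7615 bp from its start.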

How the data were processed

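The authors deposited, per library, a list of peak positions without scores and, for the 8 bisulfite samples, whole-number counts of methylated and of all calls at 21908008 CpGs, with no normalization. The submitters' processing notes name build mm10, cutadapt 1.12, Bismark 0.23.0, Bowtie2 2.3.0, HOMER 4.10.3 and bedtools 2.29.2 without stating their roles or parameters. How peaks were called and duplicates treated is not given in the sources used here. All 407620 CpGs of the RefSeq GRCm38.p6 promoter windows fell on rows of the count table, so RefSeq positions were used with the files. Coordinates count from 1.

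Overlaps, CpGs per kb (rows of the count table per peak width) and call sums were computed with Python 3.11.15, numpy 2.4.6 and pandas 2.3.3, and the overlap and call-summing code was tested on simulated data. Methylation is methylated over all calls in percent, for single peaks only with 10 or more calls. On chromosomes 1 to 19, run 1 and run 2 held 4859852 and 9573835 H3K4me1 calls and the H3K27me3 library 36558653. Neighbouring calls can come from 1 fragment or its PCR copies, and intervals and limits (3 counts where 0 were seen) hold for counting error alone. Named genes are the 5 widest peaks of each unshared class, the 3 shared regions with the largest width excess either way, and listed genes within 5000 bp of an unshared peak, up to 4 per list and class by width. Printed promoters lay wholly inside a peak, named genes first, then by CpG number. Members, gene lists and measures were chosen with earlier results of these data known. The split by H3K27me3, the promoter groups and the methylation by density bin were added after values had been seen.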

Additional observations from a re-analysis of the deposited data

Results flagged for a closer look

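CpG-dense control peaks lacked a bisulfite partner more often than CpG-poor ones for H3K4me1, and less often for H3K27me3. For H3K4me1, 44.9% of control peaks with 50 or more CpGs per kb had no run 2 peak, against 18.6% of those with fewer than 10, a difference of 26.3 percentage points. For H3K27me3 at 250000 cells the shares were 32.4% and 46.0%, a difference of -13.57. The marks thus went in opposite directions, but each rests on 1 library with and 1 without bisulfite, and the difference between the marks was not tested. The narrowest peak was 501 bp for H3K4me1 and 1001 bp for H3K27me3. With run 1 the H3K4me1 shares were 39.8% and 15.8%. H3K9me3 control peaks went the way of H3K4me1, at 41.7% and 21.95% against run 1 and 12.5% and 7.90% against run 2, with only 24 peaks of 50 or more CpGs per kb.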

How the results depend on the processing

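No paired analysis was possible because each condition had 1 library and no result came from a test. Of 56 values under other settings, 36 moved by less than the spread over chromosomes or the counting interval, 18 moved more and 2 reversed. The share of bisulfite and control peaks without a partner was 16.59% and 18.39% as reported, 21.11% and 24.53% when 50% of a peak had to be covered, and 12.47% and 14.65% when peaks within 1000 bp counted as shared. It was 19.96% and 15.44% with run 1, 21.71% and 13.62% with both runs merged, and 17.25% and 17.83% with equal numbers of the widest peaks. Under the 50% rule the median width of control only peaks was 632 bp in place of 501 bp. The methylation difference between the unshared classes (control only minus bisulfite only, -0.779 percentage points) became 1.52 with 5 or more calls per peak and 0.398 with calls of the H3K27me3 library; the cause was not tested. It was -5.32 with 20 or more calls, -2.84 with run 1 calls and -2.19 with all calls summed. The difference in calls per kb, -14.2 in run 2, was -4.36 with run 1, which holds fewer calls. In alternatives added after seeing the data, the unshared share of CpG-dense narrow peaks with H3K27me3 was 66.1% (control) and 17.9% (bisulfite) under the 50% rule and 46.5% and 17.96% with run 1. Without peaks in H3K27me3, the difference in CpGs per kb was 2.00 and that in promoter share 0.720. Differences in gene share, H3K9me3 and H3K27me3 overlap kept their sign in every setting run. Peaks without scores allowed no stricter peak threshold, and the depth of the control library is unknown.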
